A study of Mus musculus with 2 samples.

Results

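Among the cells of the mouse lower incisor, 77 met a rule for cytotoxic lymphocytes without Cd3, the signalling chains of the T cell receptor. The rule used their own counts of unique molecular identifiers (UMIs, 1 per captured RNA molecule): at least 500 detected genes, at most 20% mitochondrial and 5% haemoglobin UMIs, at least 4 UMIs of Gzma, Gzmb, Nkg7 and Klrd1 together with at least 2 of these genes detected, and at most 1 UMI of Cd3d, Cd3e and Cd3g together. Cells with Cd79a or Siglech (genes of B cells and plasmacytoid dendritic cells), with more than 2 UMIs of C1qa, C1qb and C1qc (macrophages) or with more than 4 UMIs of Ngp, Camp and Retnlg (neutrophils) were not taken. The 77 were 1.69% (1.34 to 2.11) of the 4543 barcodes that passed the first 3 limits.

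The tissue came from untreated C57BL/6 mice 4 weeks old: per the labels, mandibular incisors were cleared of bone, their proximal end was cut off, and pulp with dental epithelium was digested with collagenase. The number of animals is not given in the sources used here, and the label calls the tissue dental mesenchyme, whereas the cells outside the 77 held 58423 CPM (UMIs of a gene scaled to a common total of UMIs per group) of 8 epithelial genes beside 8751 CPM of 8 mesenchymal ones. Both titles name lanes of what the titles show as 1 library, and the counts came as 1 matrix with no map from barcodes to titles. There is therefore 1 sample, no test and no replicate check for any difference. Intervals are exact at 95% (Poisson for CPM, conditional binomial for log2 ratios, Clopper-Pearson for shares of cells) and cover counting error only.

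Cytotoxic lymphocytes kill infected or altered cells by releasing granules that hold perforin and granzymes. T cells find their targets with a rearranged receptor that needs Cd3, whereas natural killer (NK) cells lack it and weigh signals from many inherited receptors, most of them lectin-like proteins of the Klr families and the receptor Ncr1. Development of NK cells depends on the transcription factors Eomes and Tbx21 and on interleukin 15, which signals through Il2rb. Type 1 innate lymphoid cells (ILC1) share Ncr1 and Klrb1c with NK cells, and are commonly told from them by Itga1, Cxcr6 and Il7r in place of Eomes and Itga2.

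Promoter bases of 4 genes are printed first: the receptor gene Ncr1, the granzymes Gzma and Gzmb, which are genes of the rule, and the pore-forming gene Prf1. Each stretch is the 250 bases before the annotated start, outside the transcript, in RefSeq's table for GRCm38.p6 (the build named mm10 in the submitters' processing notes), written 5′ to 3′ on the gene's strand. Capitals mark the T-box core TCACAC, the kind of sequence bound by Eomes and Tbx21, and the RUNX sequence ACCACA, bound by Runx3, on either strand (GTGTGA and TGTGGT). Ncr1 lies at chr7:4337465-4337714 on the plus strand, Gzma at chr13:113100982-113101231 on the minus strand, Gzmb at chr14:56262335-56262584 on the minus strand and Prf1 at chr10:61297586-61297835 on the plus strand.
Ncr1: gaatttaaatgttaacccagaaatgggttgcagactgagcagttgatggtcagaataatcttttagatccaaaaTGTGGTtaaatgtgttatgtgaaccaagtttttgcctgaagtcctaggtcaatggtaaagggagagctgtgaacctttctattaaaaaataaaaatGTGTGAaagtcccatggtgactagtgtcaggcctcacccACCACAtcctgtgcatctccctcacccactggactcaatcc
Gzma: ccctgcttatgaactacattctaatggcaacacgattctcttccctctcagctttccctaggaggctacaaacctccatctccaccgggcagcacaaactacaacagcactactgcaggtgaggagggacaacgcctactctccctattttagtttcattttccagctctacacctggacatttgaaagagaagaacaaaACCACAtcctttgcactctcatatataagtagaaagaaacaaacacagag
Gzmb: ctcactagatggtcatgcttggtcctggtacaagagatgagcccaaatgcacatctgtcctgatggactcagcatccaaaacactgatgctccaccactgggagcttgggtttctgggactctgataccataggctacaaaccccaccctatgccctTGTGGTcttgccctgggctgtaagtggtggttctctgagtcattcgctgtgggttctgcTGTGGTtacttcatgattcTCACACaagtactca
Prf1: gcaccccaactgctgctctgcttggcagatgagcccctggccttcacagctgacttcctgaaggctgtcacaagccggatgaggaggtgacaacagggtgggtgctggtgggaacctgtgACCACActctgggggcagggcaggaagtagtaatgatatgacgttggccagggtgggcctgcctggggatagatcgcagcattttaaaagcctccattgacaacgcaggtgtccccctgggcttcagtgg
In the Ncr1 stretch the T-box core began 80 bases before the start and the RUNX sequence at 176 and 41 bases. Gzmb had a T-box core at 15 bases and RUNX sequences at 93 and 34 bases, Gzma a RUNX sequence at 50 bases and Prf1 one at 130 bases. The RUNX sequence was in the same window of 14.2% of 27025 promoters (1 per gene) and the T-box core in 12.2%. Of 24 receptor, granule and marker genes that were at least 2-fold higher in the 77 cells than in T cells, 21 had a promoter in the table (Klrd1, Klrg1 and Klri2 had none). The RUNX sequence was in 10 of the 21 and the T-box core in 4. These counts include Gzma, Gzmb and Nkg7, genes of the rule, whose higher level came from the selection. Each of them held a RUNX sequence, and Gzmb and Nkg7 also held a T-box core. These genes were chosen by their level, so the counts are a description, and a match of letters is not a binding site.

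Depth was uneven among the 77 cells, which bears on every value below. They had a median of 2045 UMIs (1126 to 31790) and of 874 genes, with a median mitochondrial share of 10.7%. The 4 cells above 10000 UMIs held 33.9% of all their UMIs, and the next had 8289. The first of the 4 (31790 UMIs) held 3659 UMIs of the enamel gene Amelx and 473 of Enam beside 14 of Gzma and 103 of Ccl5. The second (24587 UMIs) held 75 of the collagen gene Col3a1, 39 of Col1a1 and 18 of the mitotic gene Top2a beside 12 of Gzma and 46 of Ccl5. The third (17207 UMIs) held 68 of the keratin gene Krt14 and 52 of Krt17 beside 4 of Gzma and 2 of Ccl5. In the fourth (12507 UMIs) were 5 UMIs of Cpa3, 2 of Ms4a2 and 3 of Gata2, genes of mast cells and basophils, with 2 UMIs each of Gzmb and Nkg7 and none of Gzma, Klrd1 or Ccl5, so its own markers go against the name. A doublet caller scored 5 of the 77 above 0.15, among them 2 of these 4. These 4 held UMIs of genes of other cell types, so sums are given over all 77 and over the 73 others (median 1999 UMIs), a split chosen after the data were seen. The plot of depth against dental RNA shows the 4 apart.

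**Figure D1:**
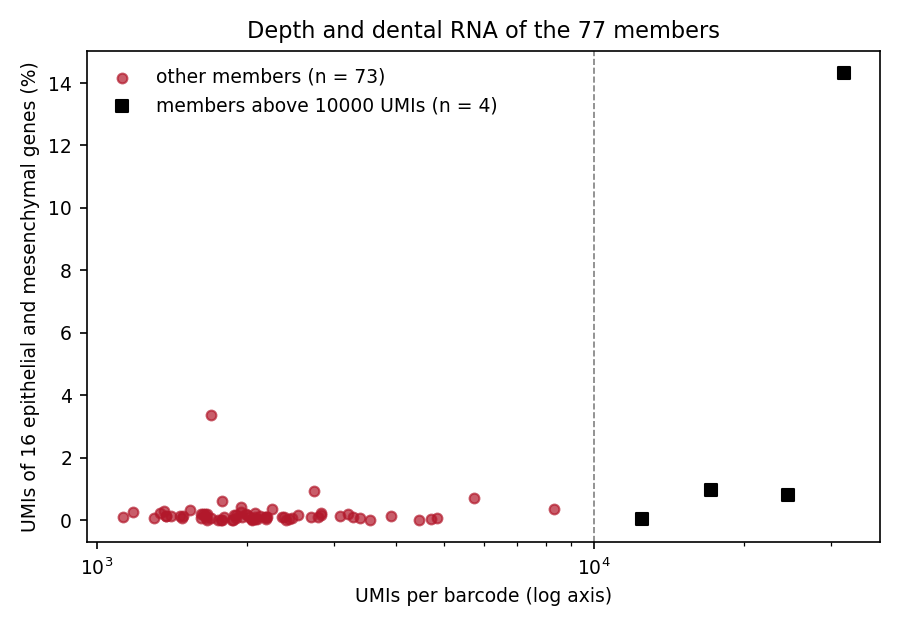
Each point is 1 of the 77 cells, with its UMIs on a log axis and, on the vertical axis, the percentage of its UMIs from 8 epithelial and 8 mesenchymal genes. The 4 cells above 10000 UMIs are squares, and the one at 31790 UMIs had 14.3% of such UMIs, while most of the 73 others lay near 0.

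The genes of the rule describe the selection and are no result. The 4 genes together had 4 to 87 UMIs per cell with a median of 24, and 50 cells had 20 or more. All 4 genes were seen in 33 cells, 3 in 33 and 2 in 11. Gzma, the granzyme with trypsin-like activity, had 0 to 74 UMIs per cell (median 16) and was present in 75 of the 77. Gzmb, which cleaves caspases, was in 50, the granule membrane gene Nkg7 in 72, and Klrd1, the partner chain of the Klrc receptors, in 56. Cd3d or Cd3g was seen in 5 cells, at 1 UMI, and Cd3e in none.

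Near the limits, 5 cells just inside had 4 to 6 UMIs of the 4 genes, and 4 of these 5 held Gzma and Ccl5. The 3 cells just outside, with 2 or 3 UMIs, held no Gzma, but all 3 had Ccl5 and Ncr1. A further 13 barcodes had 4 or more UMIs in 1 gene only, mostly Klrd1 (45 UMIs) and Gzmb (27 UMIs), with none of Gzma or Ncr1. The limit on Cd3 had 5 cells at 1 UMI inside and 4 at 2 UMIs outside. The C1q limit kept out 2 barcodes with a median of 10544.5 UMIs, and 4 barcodes with at least 200 but under 500 genes met every other condition. The cells thus had a wide margin over the lower limit in the main, with few barcodes on either side of it.

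Values were set beside those of 62 T cells (at least 2 Cd3 UMIs, without the cytotoxic part of the rule, median 2058 UMIs), whose depth was like that of the 77, and beside 23 cells with at least 2 Cd3 UMIs that met the cytotoxic part (Cd3-positive cytotoxic cells, median 2946 UMIs). A gene counted as higher or lower at 2-fold or more, if its CPM averaged at least 50 over both groups. A gene with 0 UMIs on one side was compared with a floor of 3 UMIs over that group. Genes that served in the rule were left out of these counts of higher and lower genes, though not out of the promoter counts above. Over all 77 against T cells, 317 of 2433 genes were higher (13%) and 285 lower (11.7%), and over the 73 these were 252 of 2361 (10.7%) and 255 (10.8%). The median log2 ratio of all genes was −0.02 and −0.01. A gene near 0 in T cells could enter only by being high in the cytotoxic cells, so the counts of each list are a description beside these shares.

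Most measured receptors of NK cells outside the rule were higher than in T cells, where many were near 0 and so were measured only because the 77 held them. Of 31 listed receptor genes in the matrix 25 had a UMI in the 77 cells and 6 had none. Of the 16 at a mean of 50 CPM or more, 14 were higher than in T cells and 0 lower, over all 77 (median log2 ratio 3.02) and over the 73 (3.55). Ncr1, an activating receptor used as a marker of NK cells, had 52 UMIs in 31 of the 77 cells and 1 UMI in the T cells, at 205 CPM (153 to 269) against 7.12 CPM. Its log2 ratio was 4.85 (2.31 to 10.18), and 5.42 over the 73. Klrb1c, which encodes the NK1.1 antigen of this mouse strain, had 49 UMIs in 36 cells against 1 UMI (log2 4.76, 2.22 to 10.09). No UMI of Ncr1 was found in the Cd3-positive cytotoxic cells, and Klrb1c had 35.3 CPM there.

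Lectin-like receptors that pair or signal with named partners followed the same direction. Klrk1, the activating receptor NKG2D, had 50 UMIs in the 77 cells and 2 in T cells (log2 3.79, 1.86 to 6.88). Klre1, which pairs with the Klri chains, had 56 and 3 UMIs (log2 3.37, 1.75 to 5.69). Klrb1b, an inhibitory receptor for Clec2d, had 56 UMIs and none in T cells (log2 at least 3.37). Klrc1, the inhibitory partner of Klrd1, had 44 and 10 UMIs (log2 1.28, 0.27 to 2.44) and was as high in Cd3-positive cytotoxic cells (283 CPM) as in the 73 (257 CPM). Klrc2 had 35 UMIs, Klrg1, an inhibitory receptor for cadherins, had 27 and Klri2 had 26, each against 0 in T cells. The exceptions in the list were Cd2 (log2 −0.97, −0.37 over the 73) and Cd7 (0.64 and 0.99), both within 2-fold.

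Genes of the Ly49 family (Klra), receptors that mostly read MHC class I molecules, were spread unevenly from cell to cell. Klra4, an activating member, had 55 UMIs in 24 cells, Klra7 had 49 in 28, Klra3 33 in 18, Klra8, the activating receptor for a protein of mouse cytomegalovirus, 33 in 15, and Klra9 31 in 20. In T cells Klra3 and Klra7 had 1 UMI each and the other 3 had none. At least 1 of 9 Klra genes was seen in 60 of the 77 cells (77.9%, 67.0 to 86.6) and at least 2 in 32, against 4 of 62 T cells and 1 of 23 Cd3-positive cytotoxic cells. Klra4 and Klra8 were found together in 8 cells, Klra4 alone of this pair in 16 and Klra8 alone in 7. Klra genes are near-identical copies, as are Klrc1 and Klrc2, and the counting could have moved reads between them, so values of single members are uncertain.

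Counted per cell, the 77 had more receptors at the median than the other groups measured, with ranges that overlapped those of T cells and of Cd3-positive cytotoxic cells. Of Ncr1 and 19 Klr genes of the list (20 genes, a count chosen after the data were seen), at least 1 was found in 75 of the 77 (97.4%, 90.9 to 99.7) and at least 2 in 73, with a median of 5 and a maximum of 10. The 2 cells without any were the fourth deep cell and 1 other. In T cells 10 of 62 (16.1%, 8.02 to 27.7) had at least 1, with a maximum of 4. The Cd3-positive cytotoxic cells lay between, with 17 of 23 (73.9%, 51.6 to 89.8), a median of 1 and a maximum of 6. In B cells, which should lack these genes, the share was 7 of 211 (3.32%) and in macrophages 12 of 526 (2.28%), with median depths of 1733 and 4760 UMIs.

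**Figure D2:**
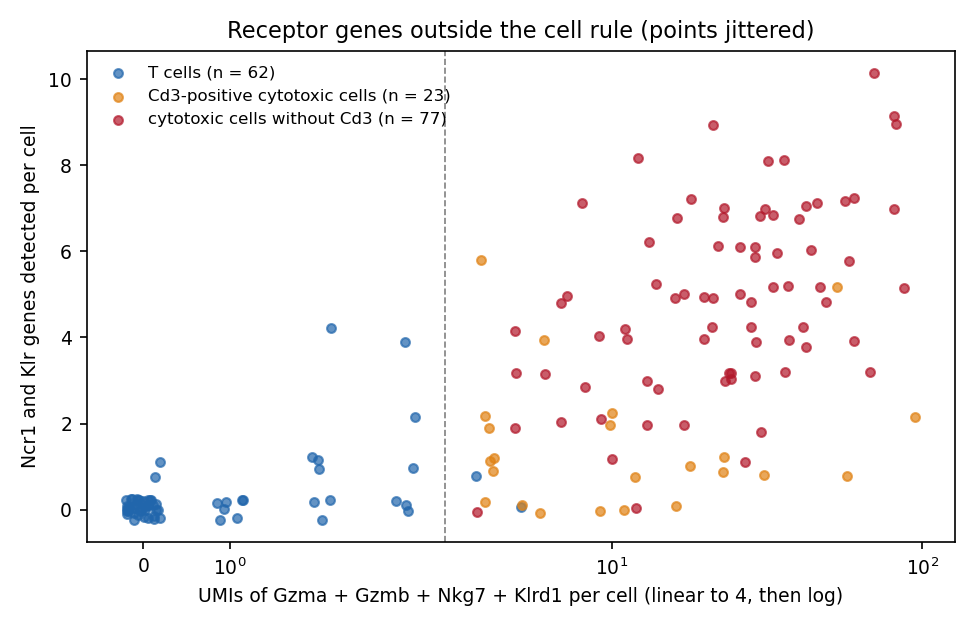
Each point is a cell, with the UMIs of the 4 genes of the rule on the horizontal axis (linear to 4, then log) and the number of Ncr1 and Klr genes detected, out of 20, on the vertical axis. The dashed line is the lower limit of 4 UMIs, the 77 cells have a median of 5 receptors, and most of the 62 T cells lie at 0.

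To compare shares of cells at equal depth, each cell was thinned to 1500 UMIs, which 66 of the 77 cells, 49 T cells, 19 Cd3-positive cytotoxic cells, 141 B cells and 494 macrophages had. Ncr1 was then seen in 19 of 66 cells (28.8%, 18.3 to 41.3; 31 of 77 unthinned), and Klrb1c likewise in 19. Neither was seen in the 49 T cells, the 141 B cells or the 494 macrophages, which allows shares of cells with a UMI of up to 7.25%, 2.58% and 0.744% by the exact interval. In the 19 Cd3-positive cytotoxic cells Klrb1c was seen in 2 (10.5%, 1.30 to 33.1) and Ncr1 in 0, which allows up to 17.6%. A gene at about 1 UMI per cell is often missed, so the shares are lower limits on the cells that hold its RNA, and the limits from 0 are for cells with a UMI at this depth only.

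Markers of other cell types were low, apart from the deep cells and from erythroid genes. All 7 B cell genes had 0 UMIs in the 77, of which the rule had fixed Cd79a alone. Of 11 macrophage and monocyte genes 6 had a UMI and the list summed to 173 CPM, against 19596 CPM in macrophages, a difference that the rule fixed in part through the C1q genes. Most of these UMIs were of Ly6c2 (28 UMIs), and Mrc1, Csf1r and Adgre1, which the rule did not use, were at 0. Dendritic cell genes, of which the rule had fixed Siglech at 0, summed to 27.6 CPM. Neutrophil genes, among them the 3 that the rule limited in both groups, summed to 74.9 CPM. This was below the 1951 CPM (274 UMIs) of the T cells, which came mainly from S100a8 and S100a9. The 17 T cells with at least 1000 genes held 2 UMIs of S100a8 and 0 of S100a9, so nearly all lay in T cells with fewer genes. Whether they lay in 1 or a few such cells was not tested. Mast cell and basophil genes were found in the fourth deep cell and in none of the other 76. Epithelial genes summed to 19203 CPM over all 77 but 1384 CPM over the 73, near the 1018 CPM of T cells. Mesenchymal genes summed to 1463 CPM and 555 CPM, against 256 CPM in T cells. Erythroid genes, among them haemoglobin genes that the rule limited in all groups, had a UMI in each of the 77. They summed to 2030 CPM over all 77 and 2256 CPM over the 73, near the 2264 CPM of T cells. B cells had 1478 CPM of them, macrophages 1193 CPM and all cells outside the 77 1096 CPM. Whether these levels came from free RNA was not tested.

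Granule genes outside the rule were mostly higher than in T cells: 6 of 9 measured genes were higher and 1 lower over all 77 (median 1.24), and 9 of 11 higher and 0 lower over the 73 (median 1.55). Prf1, which encodes perforin, had 54 UMIs in 34 cells, none of them among the 4 deep ones, and 2 UMIs in T cells. It stood at 213 CPM (160 to 278) against 14.2 CPM, a log2 ratio of 3.90 (1.98 to 6.98) and 4.50 over the 73, and at 35.3 CPM in the Cd3-positive cytotoxic cells. Serpinb9, the inhibitor that shields a killer cell from its own Gzmb, had 69 UMIs against 2 (log2 4.26, 2.35 to 7.33). The related Serpinb6b had 57 against 4 (log2 2.98, 1.55 to 4.90). The cathepsins Ctsc, which activates granzymes, and Ctsd had log2 ratios of 1.85 and 1.24, while the granule proteoglycan Srgn was lower over all 77 (log2 −1.07) and within 2-fold over the 73 (−0.57). The death ligand Fasl had 25 UMIs against 6 (log2 1.21, −0.11 to 2.78), an interval that includes no difference.

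Granzymes outside the rule were at or near 0 in the 77. Gzmk, Gzmm, Gzmd, Gzme, Gzmf and Gzmg had 0 UMIs, which allows up to 11.8 CPM each, and Gzmc had 3 UMIs, all in 1 cell among the 4 deep ones. In the Cd3-positive cytotoxic cells Gzmk had 200.2 CPM, Gzmc 106 CPM and Gzmm 70.7 CPM. Tnfsf10, the death ligand TRAIL, had 0 UMIs. Gzmb and Prf1 were both seen in 30 of the 77. Granzyme genes are similar in sequence, so single values may be shifted by the counting.

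Receptor adaptors divided in direction. Fcer1g and Tyrobp, which carry the signals of Ncr1 and of activating Ly49 receptors, were the highest of their list by UMIs (counted at the 3′ end and not scaled to length) and far above T cells, whereas adaptors of the T cell receptor were lower. Of 13 measured genes 2 were higher and 4 lower over all 77, and 2 and 3 over the 73 (medians 0.06 and 0.53). Tyrobp had 0 to 16 UMIs per cell with a median of 5, in 73 of the 77 cells, at 1742 CPM against 164 CPM (log2 3.41, 2.81 to 4.08). Fcer1g had a median of 5 UMIs in 72 cells (log2 4.22, 3.37 to 5.24). At equal depth Tyrobp was in 56 of 66 cells, 4 of 19 Cd3-positive cytotoxic cells and 460 of 494 macrophages. Fcer1g was in 59, 4 and 470 of the same groups. T cells had Tyrobp in 2 of 62 cells, and 1 of these held 20 UMIs of it and 4 of Fcer1g. Without that cell, left out after the data were seen, the log2 ratio was 6.33 (4.78 to 8.62) for Tyrobp and 4.86 (3.80 to 6.18) for Fcer1g. Hcst, the adaptor of Klrk1, was within 2-fold (log2 −0.63), while Lat (11 against 52 UMIs, log2 −3.09, −4.18 to −2.14) was lower. Cd247, the zeta chain that also serves Ncr1, was lower too (13 against 26 UMIs, log2 −1.85, −2.94 to −0.84).

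**Figure D3:**
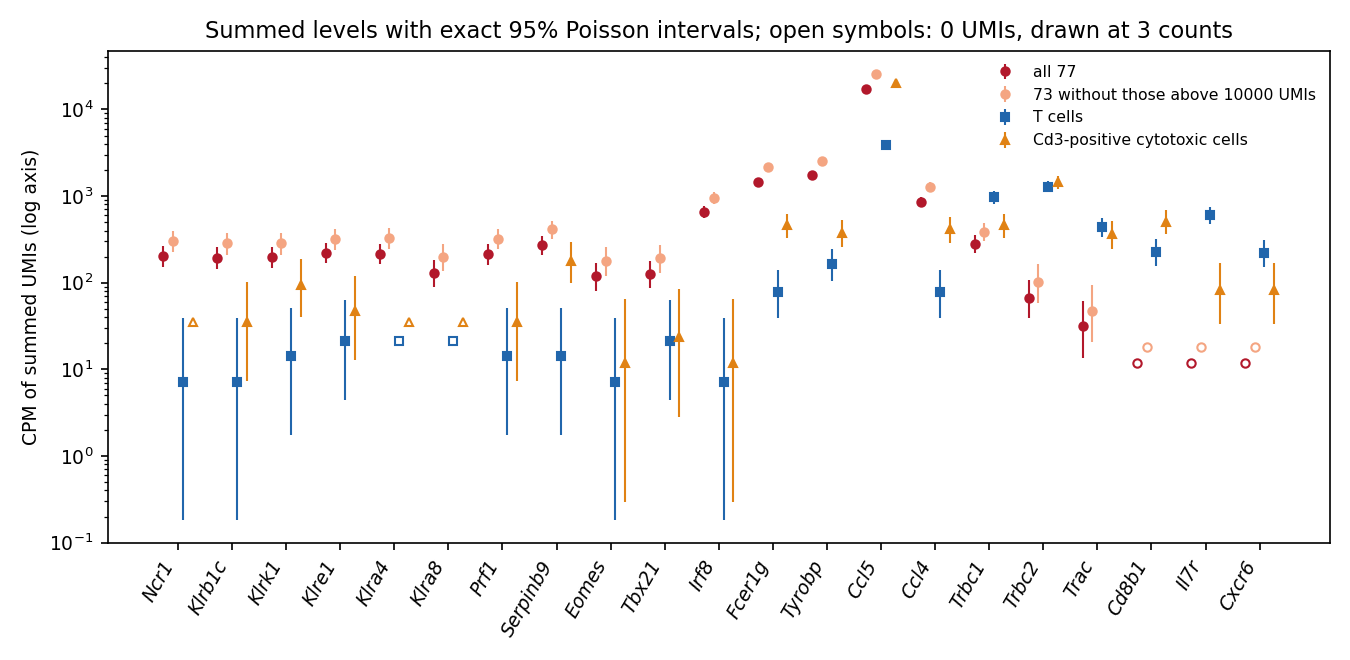
CPM on a log axis with exact 95% Poisson intervals for 21 genes in all 77 cells, the 73 without those above 10000 UMIs, T cells and Cd3-positive cytotoxic cells, with open symbols for 0 UMIs drawn at 3 UMIs. Receptor, effector and adaptor genes from Ncr1 to Ccl4 lie higher in the 77 than in T cells, and Trbc1 to Cxcr6 lie lower.

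Transcription factors were also divided, with 5 of 14 measured genes higher and 7 lower over all 77 (median −1.30), and 6 and 7 of 16 over the 73 (median −0.18). Irf8, known from myeloid cells, B cells and NK cells, was the leading one: it had 0 to 9 UMIs per cell with a median of 2, in 58 of 77 cells, and 166 UMIs in all against 1 in T cells and 1 in the Cd3-positive cytotoxic cells. Its level was 654 CPM (559 to 762) beside 118 CPM in B cells and 130 CPM in macrophages, and the log2 ratio to T cells was 6.52 (4.02 to 11.83). Eomes had 30 UMIs in 22 cells against 1 (log2 4.05, 1.47 to 9.40) and Tbx21 32 UMIs in 23 cells against 3 (log2 2.56, 0.89 to 4.91). None of these Eomes or Tbx21 UMIs lay in the 4 deep cells, and 4 cells held both. Runx3, a factor of killer lymphocytes, was higher at log2 1.39 (0.64 to 2.21), 1.93 over the 73. With at least 1000 genes required, 22 cells and 17 T cells were left. Eomes (5 UMIs against 1, log2 0.87) and Runx3 (31 against 8, log2 0.50) were then within 2-fold. The 22 cells included the 4 deep ones, which add to the total of UMIs but held no Eomes, and these ratios are not given without them.

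Factors of T cell identity were on the other side. Bcl11b had 8 UMIs in 3 cells against 36 (log2 −3.02, −4.34 to −1.89), of which 6 lay in 1 deep cell, and Tcf7 had 13 against 35 (log2 −2.28, −3.32 to −1.33), with 4 left over the 73. Lef1 (log2 −2.16) and Ets1 (−1.64) were lower as well. The Cd3-positive cytotoxic cells had 153 CPM of Bcl11b beside 31.5 CPM in the 77 and 256 CPM in T cells.

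Cytokine receptors split by pathway. Il2rb, the shared chain for interleukins 2 and 15, had 138 UMIs in 63 of the 77 cells at 544 CPM (457 to 643) against 278 CPM, which was just under 2-fold over all 77 (log2 0.97, 0.45 to 1.52) and higher over the 73 (1.50). Il18rap, a chain of the interleukin 18 receptor, had 60 UMIs against 6 (log2 2.47, 1.26 to 3.97). Il12rb2, of the interleukin 12 receptor, had 25 UMIs in 22 cells against 1 (log2 3.79, 1.18 to 9.15). Il7r, the interleukin 7 receptor, had 0 UMIs in all 77 and 84 in 35 of the 62 T cells, a log2 ratio of at most −5.66. At equal depth Il7r was in 0 of 66 cells and 18 of 49 T cells. In the whole list 3 of 17 measured genes were higher and 7 lower over all 77 (median −0.08), and 4 and 6 over the 73 (median 0.45). Ifngr1 and Jak1 were within 2-fold, and Stat5b was lower (log2 −1.85).

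Secreted factors were led by the chemokines Ccl5 and Ccl4, which attract other white blood cells. Ccl5 had 0 to 210 UMIs per cell with a median of 51 and was seen in 76 of 77. In the 73 it made up 2.55% of UMIs, the second gene by level after Tmsb4x when mitochondrial genes are set aside. Its log2 ratio to T cells was 2.16 (2.03 to 2.29), yet Cd3-positive cytotoxic cells, at 20023 CPM, were close to the 17429 CPM of all 77 and the 25482 CPM of the 73. Ccl4 had 219 UMIs, in 35 cells, with a median of 0 and up to 42 in 1 cell, against 11 UMIs (log2 3.46, 2.59 to 4.49). Macrophages held more Ccl4 than the cytotoxic cells (2883 against 863 CPM). At equal depth Ccl4 was in 24 of 66 cells (36.4%, 24.9 to 49.1) and in 5 of 19 Cd3-positive cytotoxic cells (26.3%, 9.15 to 51.2). Ifng had 18 UMIs in 9 cells, 71.0 CPM (42.1 to 112) against 171 CPM in T cells (log2 −1.27, −2.24 to −0.33; −0.67 over the 73). Xcl1 had 7 UMIs in 6 cells, and Ltb was lower (8 against 40 UMIs, log2 −3.17). Of 6 measured genes in the list 2 were higher and 2 lower over all 77 (median 0.03), and 3 and 1 of 7 over the 73 (median 0.55).

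Adhesion and homing genes gave levels that are used to tell circulating from resident cells. Itga2 (CD49b) had 11 UMIs in 10 cells and Itgam (CD11b) 18 UMIs in 14, each against 0 in T cells, while Itga1 (CD49a) had 1 UMI, Cd200r1 1, and Itgae and Cxcr6 none. Cxcr6 had 31 UMIs in T cells, so its log2 ratio was at most −4.22. Cd69, an early activation and retention marker, had 2 UMIs against 25 (log2 −4.50, −7.62 to −2.49), and Ccr7, which guides cells to lymph nodes, 0 against 36 (at most −4.44). S1pr5, an exit receptor of mature NK cells, had 4 UMIs in 4 cells. Cd27 and Itgam, which mark earlier and later maturation of NK cells, were seen in 6 and 14 cells and together in none. Given how often a gene at this level is missed, cells with neither (57) cannot be placed. Cxcr4 had 109 UMIs in 42 cells (log2 0.96, 0.37 to 1.59; 1.41 over the 73). The list had 2 of 19 measured genes higher and 8 lower over all 77 (median −0.36), and 4 and 6 of 20 over the 73 (median 0.31).

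T cell genes other than Cd3 were lower without exception among those measured: all 10 over all 77 (median −3.73) and all 10 over the 73 (median −3.14). Cd4, Cd8a, Cd8b1, Cd5, Cd6 and Tcrg-C1 had 0 UMIs in the 77, and Cd8b1 had 32 in T cells and 506 CPM in the Cd3-positive cytotoxic cells. The costimulatory receptors Cd28 and Icos had 4 UMIs each, against 45 and 54. Trac, the constant part of the T cell receptor alpha chain, had 8 UMIs in 7 cells against 62 (log2 −3.81, −5.08 to −2.74). Absence of Cd3 was a condition of the rule, and the T cells were chosen by Cd3, so these lower levels are not independent of the selection.

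Of the 2 beta chain constant genes, Trbc1 was less low than the median of the T cell genes (−3.73), whereas Trbc2 was lower than that median. Trdc and Skap1 (log2 −2.05) were also less low than it. Trbc1 had 71 UMIs in 41 of the 77 cells, with 0 to 5 per cell and a median of 1, and Trbc2 17 UMIs in 15 cells. T cells had 137 and 180 UMIs. The log2 ratio was −1.80 (−2.24 to −1.38) for Trbc1 and −4.26 (−5.07 to −3.54) for Trbc2. With free RNA subtracted the ratio of Trbc1 was −0.72. That correction took 89.5% of the UMIs of the 77 and 5.82% of those of T cells, mainly through 1 deep cell, so the value is unreliable. At equal depth Trbc1 was in 27 of 66 cells (40.9%, 29.0 to 53.7), a share like that of T cells (21 of 49; 42.9%), while Trbc2 was in 9 of 66 (13.6%, 6.43 to 24.3) and 35 of 49 (71.4%). In 141 B cells neither was seen, and in 494 macrophages Trbc1 was seen in 1 and Trbc2 in none. Trbc1 made up 71 of 88 Trbc UMIs in the 77 cells (80.7%, 70.9 to 88.3), 137 of 317 in T cells (43.2%, 37.7 to 48.9) and 39 of 161 in Cd3-positive cytotoxic cells (24.2%, 17.8 to 31.6), with intervals that treat UMIs of the same cell as independent. By cells, Trbc1 alone was seen in 35 of the 77, Trbc2 alone in 9 and both in 6. In T cells these were 9, 25 and 21 of 62, and in Cd3-positive cytotoxic cells 4, 11 and 6 of 23. Any Trbc UMI was found in 50 of the 77 (64.9%). The 2 genes are near-identical over their coding parts, and how reads were assigned between them is not given in the sources used here. Trdc, of the delta chain, had 10 UMIs in 9 cells against 19 (log2 −1.78, −3.05 to −0.60).

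**Figure D4:**
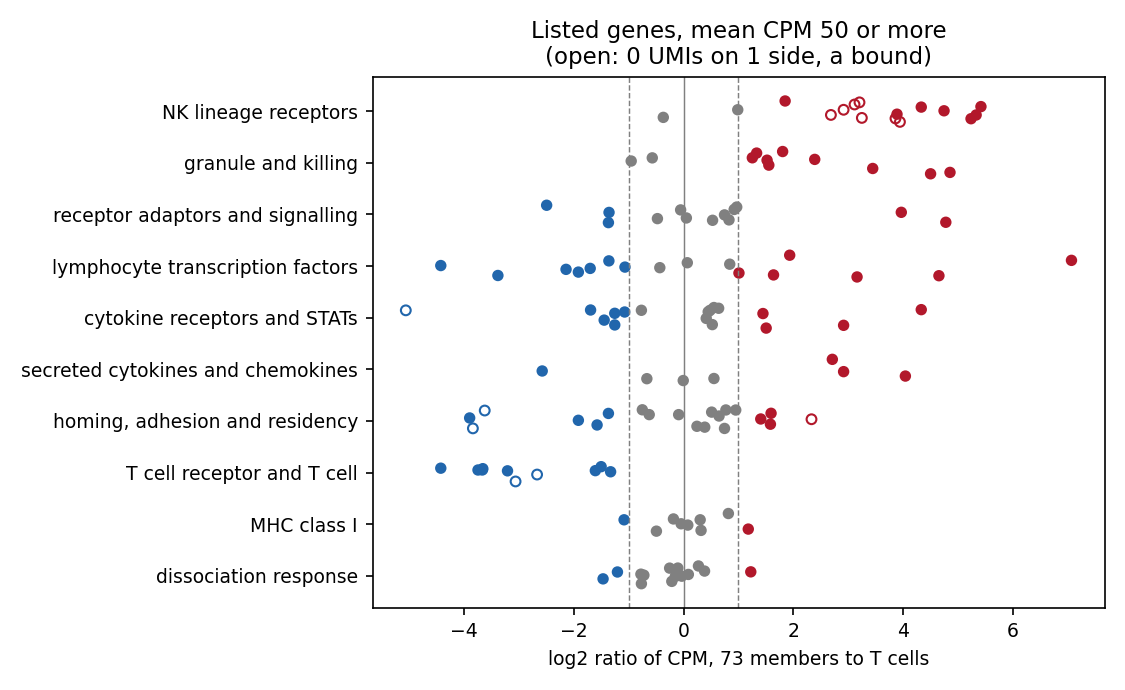
Each point is a listed gene with a mean of at least 50 CPM, by its log2 ratio of CPM in the 73 cells to T cells, with dashed lines at 2-fold and open points for bounds. NK lineage receptors (14 of 16) and granule genes (9 of 11) lie to the right, T cell genes (10 of 10) to the left, and the other lists hold both directions.

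MHC class I genes and genes of the response to tissue digestion were mostly within 2-fold of T cells. Of 9 measured MHC class I genes 0 were higher and 1, H2-T22, lower over all 77, and 1 and 1 over the 73, with B2m at 1096 CPM against 1730 CPM (log2 −0.66; −0.18 over the 73). Of 14 genes of the response to tissue digestion 0 were higher and 2 lower over all 77, and 1 and 2 over the 73. Junb was at log2 −0.56 and −0.03, and Dusp1 at 0.72 and 1.22. Interferon response genes had 1 of 5 higher and 0 lower over all 77, and 0 and 2 of 5 over the 73 (medians 0.01 and −0.39). The higher one was Ifitm2 (log2 2.15), of whose 56 UMIs 6 were left over the 73 (−0.48). Ifi27l2a, an interferon-induced gene outside that list, had 5 UMIs in 3 cells at 19.7 CPM against 1943 CPM (log2 −6.62, −8.26 to −5.38; −6.76 over the 73), the lowest ratio among genes outside the lists with at least 100 UMIs in T cells and present in at least 25% of them.

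Cell division genes depended on the deep cells. Over all 77, 4 of 6 measured genes were higher (median 1.29), and over the 73, 0 of 3 were higher and 1 lower (median −0.25). Of 16 UMIs of Mki67 13 lay in the 4 deep cells, of 31 of Top2a 25, and of 66 of Ube2c 64. A UMI of Mki67 or Top2a was found in 5 of the 73.

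Outside the lists, AW112010, a transcript known from immune cells, led over T cells, with 522 UMIs in 74 of the 77 cells at 2058 CPM against 399 CPM (log2 2.37, 1.97 to 2.79). Ptms, the parathymosin gene (log2 2.20; 1.33 over the 73), and the annexin gene Anxa2 (2.01 and 1.90) came next. Also higher were the glucosylceramide synthase gene Ugcg (log2 1.51, 0.85 to 2.22; 2.05 over the 73), the nuclear receptor gene Nr4a2 (1.22 and 1.75) and the galectin gene Lgals1 (1.14 and 1.24). Several genes among the leading ones over all 77, such as Cst3 (1.80 and 0.71) and Uqcr11 (1.46 and 0.46), were within 2-fold over the 73. At the low end, after Ifi27l2a, stood Emb, an adhesion protein gene (log2 −2.997, −3.61 to −2.43), and the actin regulator Coro1a (−1.17; −0.60 over the 73).

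Against all other 4466 cells, which are mostly not lymphocytes and far deeper (median 5891 UMIs), 368 of 2507 genes were higher (14.7%) and 278 lower (11.1%) over all 77, and 551 of 2458 (22.4%) and 516 (21%) over the 73. All 15 measured NK receptors were higher over all 77 (median log2 9.05). The whole receptor list summed to 33.9 CPM in the other cells, so a receptor could be measured only by being high in the 77. This count was thus fixed by the limit of 50 CPM and is no result. Il2rb, Cd52, Rac2 and Laptm5, genes of white blood cells, were higher too. Over the 73 the log2 ratios were 7.99 for Il2rb and 4.54 for Ptprc, the gene of CD45. Depth and cell type cannot be told apart in this comparison.

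Among themselves the cells differed most in the chemokines Ccl5 and Ccl4, after Amelx. After thinning to 1500 UMIs, the ratio of variance to mean over 66 cells had a median of 1.42 across 230 genes. These 66 included the 4 deep cells with RNA of other cell types, and the ranking is given only with them. Amelx was highest (94.4), and the deepest cell held 54.6% of its UMIs. Ccl5 (19.5) and Ccl4 (14.8) came next, Gm26917 (9.45), Actb (9.37), Tmsb4x (8.70) and Gzma (7.95) followed, and Hmgb2 (4.07) and AW112010 (3.58) were also among the first 15, while Nkg7 (2.30) and Irf8 (1.95) lay lower, and Tyrobp (1.56) and Fcer1g (1.41) were near the median. The ratio also rises with a gene's level. Per 10000 UMIs of the cell, the 73 held 7.33 to 865 UMIs of Ccl5 (median 273) and 0 to 300.3 of Gzma (median 87.9). Gzma is a gene of the rule. Every one of the 73 had Ccl5, which the rule did not use.

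**Figure D5:**
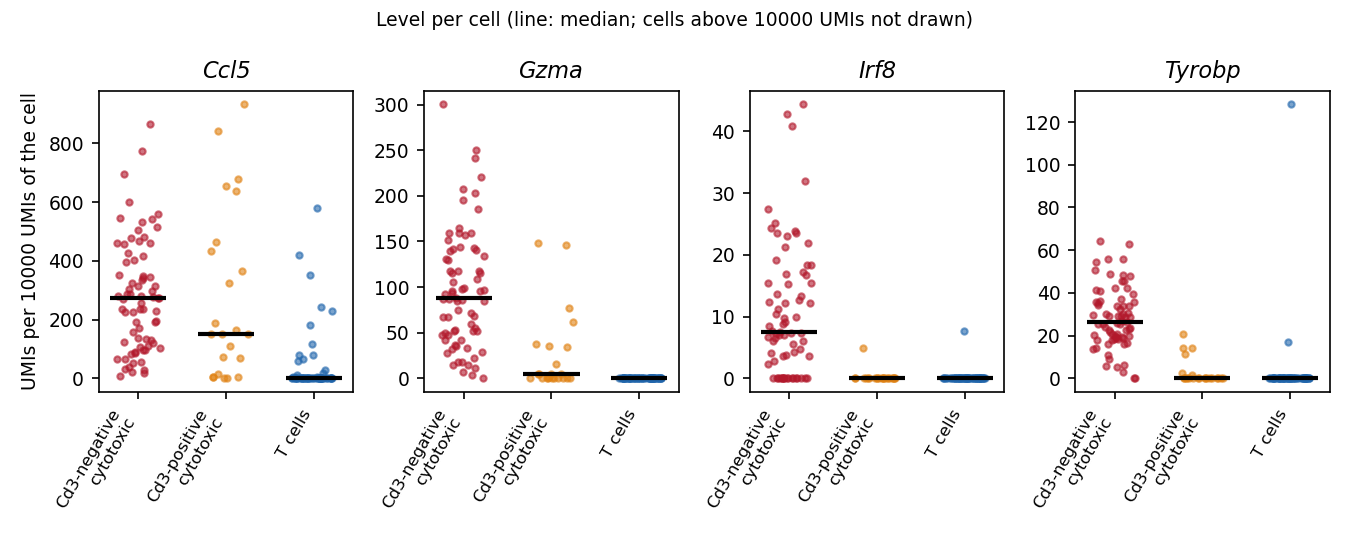
UMIs per 10000 UMIs of the cell for Ccl5, Gzma, Irf8 and Tyrobp, 1 point per cell, with lines at the medians, in the 73 Cd3-negative cytotoxic cells, the Cd3-positive cytotoxic cells and the T cells. The highest levels of Ccl5 are alike in both cytotoxic groups (median 273 in the 73), but several Cd3-positive cytotoxic cells lie at or near 0 (Ccl5 seen in 21 of 23). Irf8 and Tyrobp are at 0 in most Cd3-positive cytotoxic cells and T cells.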

How the data were processed

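The deposited values were raw counts of UMIs per gene and droplet barcode (10x Genomics 3′ chemistry, version 3, per the labels), which the authors deposited as 1 matrix of 31053 genes and 6794880 barcodes with 68931830 UMIs. Per the file headers the matrix was written in format 2 by software version 3.0.2. The submitters' processing notes give build mm10, R 3.4.1 and Seurat, while aligner and annotation are not stated there or in the other sources used here. No sample columns were left unused (0).

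Barcodes with at least 500 genes (5336) were kept at a mitochondrial share of at most 20% (4775) and a haemoglobin share of at most 5% (4543). Of these, 126 had 4 UMIs of the 4 genes, 104 had 2 of the genes, 79 met the Cd3 limit and 77 the rest, and no 2 of the 77 columns were identical (0). Other groups were T cells (62), Cd3-positive cytotoxic cells (23), B cells (Cd79a and Cd79b together at least 3 UMIs, 211) and macrophages (C1q genes together at least 10 UMIs, 526). UMIs were summed per group and scaled to CPM, and shares came from cells thinned to 1500 UMIs. Barcodes were not removed as doublets: Scrublet (scanpy 1.11.5, expected share 5%) called 1 of 4775 by its automatic threshold, so a score above 0.15 (122 barcodes, 2.55%) was used for an alternative only. Droplets of 1 to 20 UMIs stood for free RNA. Python 3.11.15, numpy 2.4.6, scipy 1.17.1 and pandas 2.3.3 were used, and the ratios were tested on simulated data.

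The members and the 23 gene lists (356 genes) were chosen with earlier results of these data known. Genes are named by a rule: a fixed set of cytotoxic, NK and T cell genes, up to 4 per list by level and 4 by ratio to T cells, the 15 highest and 10 lowest ratios outside the lists, and the 15 most variable genes. Klrk1, Klrc1, Klrc2, Klri2, Klrg1, Klra8, Klra9, Fasl, Tcf7, Lef1, Cd247, Trac and the other listed genes outside it, the RUNX and T-box letters and the printed promoters were chosen after values were seen. Promoters came from RefSeq's table and were matched by symbol.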

Additional observations from a re-analysis of the deposited data

How the results depend on the processing

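No paired analysis was possible because there is 1 group and 1 matrix, and leaving out a replicate was not run for the same reason. The number of cells was 22 with at least 1000 genes required (beside 17 T cells), and these included all 4 cells above 10000 UMIs. It was 34 with a mitochondrial share of at most 10% (beside 27 T cells), and between 68 and 81 under the other limits. Counts against T cells (317 higher, 285 lower) became 594 lower at 1000 genes, 502 lower at 10% mitochondrial UMIs, 147 higher and 113 lower at a mean of 100 CPM, 1545 higher and 1195 lower without that filter, and 640 higher with free RNA subtracted. Counts against all other cells (368 higher, 278 lower) became 175 lower at 1000 genes, 610 higher and 542 lower without cells above 2 times the median depth, 516 lower without those above 10000 UMIs, 454 lower with equal weight per cell, 912 higher and 665 lower with free RNA subtracted, 173 higher and 115 lower at 100 CPM, and 7338 higher and 2011 lower without the filter. The free RNA correction took 89.5% of the UMIs of the 77 and 5.82% of those of T cells as free. For all other cells it took 100%, its upper limit, so the counts against them with free RNA subtracted cannot be read. The correction used 4 genes (Amelx, Ambn, Col1a1 and Col1a2). The deepest cell held 3938 of their 4277 UMIs in the 77, and without that cell the correction took 8.11% of the UMIs of the 77. The share of cells with Klrb1c was 28.8% at 1500 UMIs, 13.0% at 1000 and 46.8% unthinned, and that with Prf1 was 36.4% at 1500 and 22.1% at 1000. At 1500 and 1000 UMIs Ncr1 stayed at 28.8% and 28.6%, Eomes at 19.7% and 19.5% and Gzma at 92.4% and 92.2%. Each thinning was 1 random draw, over 66 cells at 1500 UMIs and 77 at 1000, and the spread between draws was not measured.

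Of the named genes at 2-fold or more, 94 of 101 kept their direction and 77 their 2-fold size without the cells above 10000 UMIs. Between 0 and 9 turned under the other settings. At 1000 genes this was Cd74 (−0.45; 2 UMIs against 1), and several ratios became lower bounds as T cells had 0 UMIs of Itga2 (4 UMIs in the 22 cells, a bound that gives no direction), Ncr1 (at least 1.28), Klrb1c (at least 1.13), Tbx21 (at least 0.13) and Klra4 (at least 0.28), while Eomes had 5 UMIs against 1 (0.87) and Runx3 was at 0.50. At 10% mitochondrial UMIs Pecam1 (0.36; 3 UMIs against 1) turned, and Itgam (6 UMIs against 0) had a bound that gives no direction. Lum turned with high doublet scores removed (−0.22), with equal weights (−0.26) and with free RNA subtracted (−1.19). Ifitm2 turned with equal weights (−0.16), with free RNA subtracted (−0.31), without cells above 10000 UMIs (−0.48) and without those above 2 times the median (−1.21). Free RNA subtraction also turned Cst3 (−0.98) and Prdx2 (−2.77). Without cells above 10000 UMIs Birc5 (−1.25), Cenpf (−0.25), Top2a (−0.48), Krt14 (−1.25), Krt5 (−0.25) and Krt17 (−1.25) turned, and without those above 2 times the median Birc5 (−0.99), Top2a (−0.48), Col1a1 (−0.53), Lum (−2.58), Col1a2 (−0.58), Krt14 (−0.99), Krt17 (−0.99) and Prdx2 (−0.042). At the depth of these cells, genes below 1 UMI per cell are missed in most of them, so their shares are minima.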

Other observations

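Ligands and growth factors of NK cells were looked up in the other cells of the same tissue, with values only and no comparison. Of 20 such genes 11 had 0 UMIs in the 77 cells. Il15, the growth factor read through Il2rb, had 14.1 CPM in macrophages and 2.76 CPM over all cells outside the 77. Il18, read with the help of Il18rap, had 41.1 CPM in macrophages and 5.58 CPM over all cells outside the 77. Cxcl16, the ligand of Cxcr6, had 145 CPM in macrophages, beside 0 UMIs of Cxcr6 in the 77. Cxcl10, a ligand of Cxcr3, had 352 CPM in macrophages, and Cxcr3 likewise had 0 UMIs in the 77. Cxcl12, the ligand of Cxcr4, had 37.7 CPM over all cells outside the 77 and 2.06 CPM in macrophages, beside 430 CPM (353 to 518) of Cxcr4 in the 77. Clec2d, the ligand of Klrb1b, was present in the cytotoxic cells themselves at 130 CPM (89.6 to 183), at 384 CPM in T cells and at 141 CPM in macrophages.

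The erythroid list held 1 gene that stood apart from haemoglobin. Car2, carbonic anhydrase, had 42 UMIs in 28 of the 77 cells (32 UMIs in the 73) and 1 UMI in T cells (log2 4.54, 1.98 to 9.88), whereas Hbb-bs was within 2-fold (log2 −0.56; −0.33 over the 73). Car2 was at 63.6 CPM in B cells, 101 CPM over all cells outside the 77 and 77.7 CPM in droplets of 1 to 20 UMIs, against 166 CPM in the 77.

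Among the 23 Cd3-positive cytotoxic cells, 1 held 365 of the 366 UMIs of dendritic cell genes, so their sum was 4311 CPM with it and 12.7 CPM without it. Whether that cell held RNA of 2 cells was not tested.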
